A study of Homo sapiens with 11 samples.

Results

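Of the 101987 SMARCA4 peaks called in DMSO-treated 92-1 cells, 29529 (29.0%, 95% Wilson interval 28.7 to 29.2) shared no base with a SOX10, MITF or TFAP2A peak called in the same condition. These factor-free SMARCA4 sites were chosen by overlap of the deposited DMSO peak lists, so that the values of those 4 lists at the sites are a description of the choice and not a result. The remaining 72458 SMARCA4 peaks, which overlapped at least 1 factor peak, were the comparison group. SMARCA4 peaks overlapped SOX10 peaks in 56.5% of cases, TFAP2A peaks in 56.0% and MITF peaks in 40.6%.

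92-1 is an established human line from a uveal melanoma, a tumour of pigment cells in the eye. Cultures received DMSO as vehicle or FHT-1015, which blocks the ATPase subunits of BAF complexes, for 4 h, and chromatin was precipitated with antibodies against SMARCA4, SOX10, MITF, TFAP2A (AP-2 in the sample titles) or acetylated histone H3 lysine 27 (H3K27ac). There was 1 library for every antibody and condition, 10 in all, and a DMSO input library completed the 11 samples. No test between conditions was therefore possible. The intervals below are over peaks, promoter windows or genes. They cover counting error only, not the spread between cultures, and all cells came from 1 line.

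SMARCA4, also called BRG1, is a motor subunit of BAF complexes, which use ATP to slide and evict nucleosomes and keep promoters and enhancers open. BAF complexes have little sequence preference of their own and are brought to DNA by transcription factors, which in pigment cells include SOX10 and MITF, with TFAP2A as a factor of the neural crest. H3K27ac marks active promoters and enhancers, and many promoters of housekeeping genes carry it in every cell type. As a check of the labelled cell type, an H3K27ac peak in DMSO lay in all 11 pigment lineage genes of a marker list and in 9 of 20 markers of neurons, blood, muscle, liver and epithelium. Such counts grow with gene length. At a gene boundary 8 of the 11 pigment genes had H3K27ac (72.7%), all but DCT, TRPM1 and GPR143, against 5 of the 20 other markers and 57.7% of all protein-coding genes.

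Most factor-free sites lay away from promoters, and only 80 of those near a gene boundary had their summit inside a promoter window of the RefSeq table (GRCh38.p14, from 250 bases before to 50 after a transcript start). The 3 strongest acetylated and the 3 strongest non-acetylated sites among them show what such promoters look like. The acetylated windows belonged to ZNF580 (chr19:55641802-55642101, + strand), which encodes a zinc finger protein, MSI2 (chr17:57256769-57257068, + strand), an RNA-binding protein, and BSG (chr19:571033-571332, + strand), the cell surface glycoprotein basigin. Each window is given 5′ to 3′ along the gene, with the letters that matched a searched motif on either strand in capitals.
ZNF580: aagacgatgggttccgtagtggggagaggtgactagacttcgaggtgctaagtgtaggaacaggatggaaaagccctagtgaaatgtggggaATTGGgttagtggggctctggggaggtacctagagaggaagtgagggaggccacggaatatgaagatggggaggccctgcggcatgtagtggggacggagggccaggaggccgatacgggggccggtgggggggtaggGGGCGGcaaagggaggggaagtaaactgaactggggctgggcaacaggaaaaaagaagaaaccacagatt
MSI2: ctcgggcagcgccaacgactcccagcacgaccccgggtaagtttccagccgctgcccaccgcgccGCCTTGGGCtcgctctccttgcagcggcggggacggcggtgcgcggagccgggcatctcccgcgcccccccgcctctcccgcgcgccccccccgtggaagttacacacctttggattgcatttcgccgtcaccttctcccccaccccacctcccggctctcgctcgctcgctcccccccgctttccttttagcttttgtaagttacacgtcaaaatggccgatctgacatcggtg
BSG: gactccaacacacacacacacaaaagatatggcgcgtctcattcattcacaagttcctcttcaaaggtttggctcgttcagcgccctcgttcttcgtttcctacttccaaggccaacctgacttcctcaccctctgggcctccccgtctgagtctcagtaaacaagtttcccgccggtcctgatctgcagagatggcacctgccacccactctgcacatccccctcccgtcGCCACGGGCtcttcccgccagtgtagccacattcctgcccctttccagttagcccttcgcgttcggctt

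The non-acetylated windows belonged to CACNB4 (chr2:152098995-152099294, - strand), a calcium channel subunit, AK4 (chr1:65147302-65147601, + strand), a mitochondrial adenylate kinase, and RARB (chr3:24829071-24829370, + strand), a retinoic acid receptor. They are shown for contrast with the acetylated ones.
CACNB4: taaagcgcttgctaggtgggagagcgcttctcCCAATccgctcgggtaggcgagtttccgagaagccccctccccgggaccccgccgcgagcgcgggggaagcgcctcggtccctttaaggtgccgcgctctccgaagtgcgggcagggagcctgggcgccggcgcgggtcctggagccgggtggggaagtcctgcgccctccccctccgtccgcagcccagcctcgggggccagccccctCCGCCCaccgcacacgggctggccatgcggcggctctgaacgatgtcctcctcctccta
AK4: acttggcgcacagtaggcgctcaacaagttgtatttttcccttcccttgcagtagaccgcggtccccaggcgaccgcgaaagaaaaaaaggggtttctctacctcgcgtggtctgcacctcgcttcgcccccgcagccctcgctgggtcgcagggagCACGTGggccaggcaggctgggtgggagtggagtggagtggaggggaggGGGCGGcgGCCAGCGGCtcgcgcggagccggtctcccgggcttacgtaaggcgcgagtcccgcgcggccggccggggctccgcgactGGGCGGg
RARB: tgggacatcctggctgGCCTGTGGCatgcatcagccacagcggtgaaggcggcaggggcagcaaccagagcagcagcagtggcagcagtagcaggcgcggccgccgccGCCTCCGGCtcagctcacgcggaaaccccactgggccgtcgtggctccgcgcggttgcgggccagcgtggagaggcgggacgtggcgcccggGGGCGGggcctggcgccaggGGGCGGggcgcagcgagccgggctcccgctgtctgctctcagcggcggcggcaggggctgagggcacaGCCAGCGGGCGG

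All 6 sites had an FHT-1015 SMARCA4 peak over them. The −log10 p of the DMSO peak (the caller's own p-value for that peak) was 10.2 at ZNF580, 9.42 at MSI2 and 7.74 at BSG, beside 8.18, 14.4 and 10.7 for the FHT-1015 peak. At the non-acetylated promoters it was 10.8 at CACNB4, 9.73 at AK4 and 8.90 at RARB, beside 23.7, 49.96 and 8.32 in FHT-1015. The GC content of the windows ran from 56.7% at BSG to 76.3% at RARB, beside a median of 62.3% over all promoter windows. The capitals in ZNF580 and CACNB4 mark CCAAT, the NF-Y motif, and GGGCGG, the SP motif. AK4 held CACGTG, the E-box that MITF and related factors can bind, with 1 match of GCCNNNGGC, the AP-2 motif, and 2 of GGGCGG. RARB held 2 matches of GCCNNNGGC, 3 of GGGCGG and 1 of a short form of the CTCF motif, which overlapped an SP match. A match is a string of letters and not a measured site.

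Among all promoter windows, 261 were touched by a factor-free site and by no other SMARCA4 peak. Several motif shares differed from those of the 7231 windows touched by a factor-bound SMARCA4 peak and lay nearer to those of the 14586 windows with no SMARCA4 peak. CCGGAAG, the ETS motif, was in 4.21% of the factor-free windows (interval 2.37 to 7.39), in 14.4% of the factor-bound windows, in 12.1% of the windows with no SMARCA4 peak and in 12.8% of all 22078 windows. Its share was thus lower than in both other kinds of window. CACGTG was in 4.60% (2.65 to 7.86), against 11.2%, 6.94% and 8.32% in the same order. GCCNNNGGC was in 19.5% (15.2 to 24.8), against 37.0%, 22.7% and 27.3%. The motifs of SOX factors went the other way. ACAAAG was in 17.6% of the factor-free windows (13.5 to 22.7), 10.2% of the factor-bound windows, 15.3% of those with no SMARCA4 peak and 13.6% of all windows, and ACAATG was in 12.6% (9.15 to 17.2), 5.74%, 9.31% and 8.18%. For these last 4 motifs the windows with no SMARCA4 peak lay inside the interval of the factor-free ones. The NF-Y motif, CCAAT, did not follow this pattern. It was in 21.8% of the factor-free windows (17.3 to 27.2), against 30.3%, 37.2% and 34.7% in the same order. This share lay below both other kinds and nearer to the factor-bound windows. AAGATGGC, the YY1 motif, was in 1 of the 261 windows, against 3.54% of all windows. The NRF1 motif was in 0 of 261, which allows a share of up to 1.45%, against 1.48% of all windows. The factor-free windows were less GC-rich, with a median of 60.3% against 68.3% in the factor-bound ones and 59.0% in those with no SMARCA4 peak. H3K27ac in DMSO lay over 30.7%, 85.4% and 36.3% of them. The part of base composition in the motif shares was not tested. The factor-free and factor-bound windows were set apart by DMSO peaks of SOX10, MITF and TFAP2A. Differences between them in the motifs of these factors are thus not independent of that choice. Some genes had more than 1 window, and windows of 1 gene can overlap. The intervals count each window as independent.

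The factor-free sites were mostly weak peaks. Their median −log10 p in DMSO was 4.08, with a 10th percentile of 2.77, a 90th of 6.18 and a highest value of 42.0, and their median fold enrichment, the authors' ratio over the caller's background, was 2.96. The other SMARCA4 peaks had a median −log10 p of 6.36, a 90th percentile of 16.8, a highest value of 142 and a median fold of 3.48. The median factor-free site was 237 bp wide with 11 reads at its summit, against 389 bp and 18 reads. The whole range of the factor-free sites was thus shifted down: their 90th percentile lay below the median of the other peaks. A q-value under 0.05 was reached by 72.6% of factor-free sites and 89.8% of the others, and a −log10 p of at least 10 by 226 (0.765%) and 19045 (26.3%). When all SMARCA4 peaks were divided into 10 equal parts by −log10 p, factor-free sites made up 51.6% of the weakest part and 0.216%, or 22 peaks, of the strongest.

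**Figure D1:**
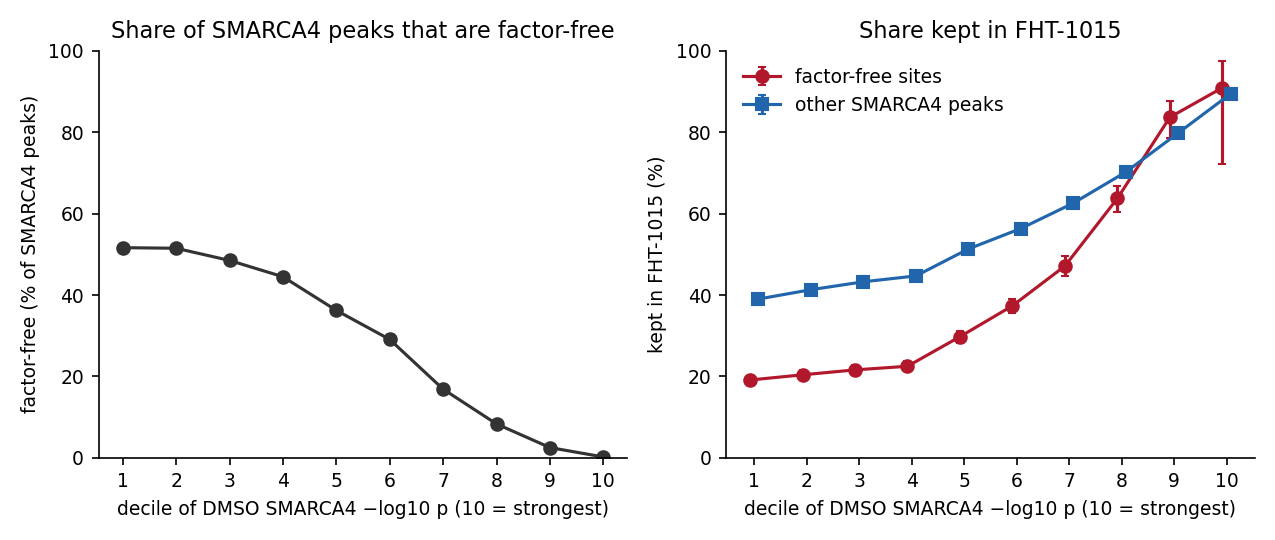
Both panels divide the DMSO SMARCA4 peaks into deciles of −log10 p on the x axis, with 95% Wilson intervals over peaks. The left panel gives the percentage of peaks that were factor-free, which falls from 51.6% to 0.216%, and the right panel the percentage kept in FHT-1015, where factor-free sites (circles) start at 19.1% and other peaks (squares) at 39.0% and both end near 90%.

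Sites at the edge of the rule were much alike. The 30 sites that touched a factor peak without sharing a base had a median −log10 p of 4.14, and the 240 sites with a gap of 1 to 10 bases had a median of 4.31. The 290 SMARCA4 peaks just outside the rule, which shared 1 to 10 bases with a factor peak, had a median of 4.08. H3K27ac lay over 52.9% of the sites with a gap of 1 to 10 bases and over 57.6% of the peaks just outside. The rule thus divides a continuous range at its edge.

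Factor-free did not mean remote. The median gap to the nearest DMSO factor peak was 631 bp, 43.5% of sites (12833) lay within 500 bp of one and 94.7% within 10000 bp. The nearest was a TFAP2A peak for 44.8% of sites, a SOX10 peak for 31.9% and a MITF peak for 23.3%. The DMSO lists of these factors had the same order of size, with 142667 TFAP2A, 103379 SOX10 and 89519 MITF peaks. The part of list size in these shares was not tested. Of the sites, 7303 (24.7%) lay in a broad SMARCA4 peak that also covered a factor-bound SMARCA4 peak.

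H3K27ac was present in DMSO at 9712 factor-free sites (32.9%, 32.4 to 33.4), where 55.8% of all SMARCA4 peaks and 65.1% of the factor-bound ones had it. The share followed the distance to a factor peak. It was 55.5% at gaps under 100 bp, 34.5% between 500 and 1000 bp, 16.3% between 1000 and 2500 bp, and 1.46% beyond 10000 bp. The median −log10 p of the sites moved with the same distance only from 4.35 to 3.79. Within 1 range of strength, −log10 p from 4 to 6, the H3K27ac share was 54.5% at gaps under 500 bp, 26.8% between 500 and 2500 bp and 3.13% beyond. Acetylation of a site and acetylation of a factor-bound neighbour cannot be told apart in peak lists.

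SMARCA4 was kept at 7960 factor-free sites (26.96%, 26.5 to 27.5), meaning that an FHT-1015 SMARCA4 peak shared at least 1 base with them, where 52.0% of all DMSO SMARCA4 peaks were kept. Of the factor-bound peaks, 62.2% were kept. The FHT-1015 SMARCA4 list was the smaller, with 89761 peaks, and its lowest background was 1.77 reads against 1.91 in DMSO, so that library was slightly shallower. The part of depth in the lost sites was not tested. The kept share of factor-free sites was 42.9% at gaps under 100 bp from a factor peak, 26.98% between 500 and 1000 bp and 7.64% beyond 10000 bp. Among sites with a −log10 p from 4 to 6 it was 42.2% under 500 bp, 21.8% between 500 and 2500 bp and 7.52% beyond, and the fall with distance was thus also present at like strength.

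**Figure D2:**
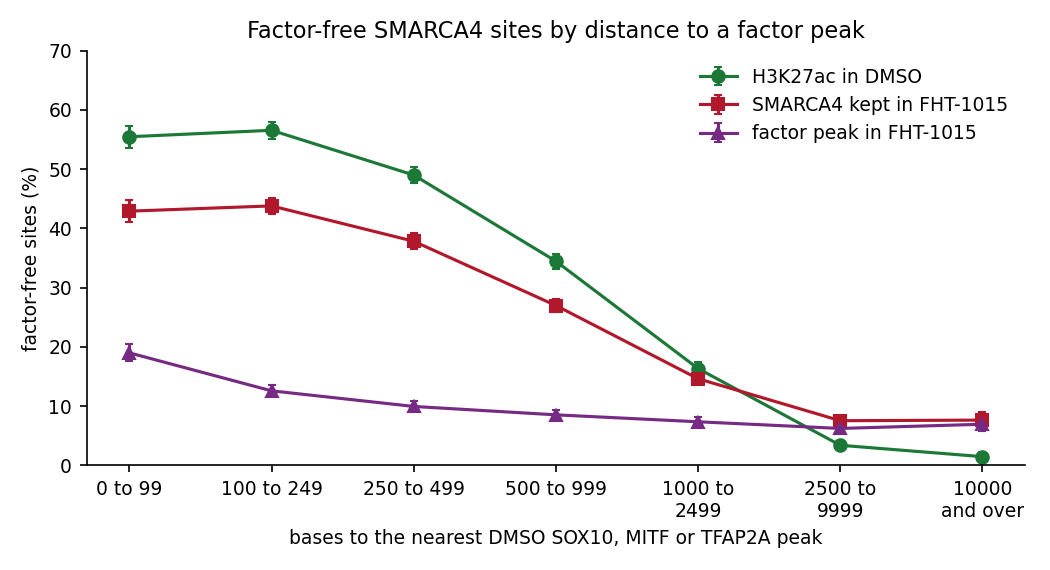
Percentage of factor-free sites (y axis, with 95% Wilson intervals) in 7 bins of the distance in bases to the nearest DMSO factor peak (x axis). H3K27ac in DMSO (circles) falls from 55.5% to 1.46%, SMARCA4 kept in FHT-1015 (squares) from 42.9% to 7.64%, and an FHT-1015 peak of SOX10, MITF or TFAP2A over the site (triangles) from 18.99% to 6.94%.

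Strength and keeping went together. Kept factor-free sites had a median −log10 p of 4.51 in DMSO and lost ones 3.90. In the weakest decile 19.1% of factor-free sites and 39.0% of other peaks were kept, in the 7th 47.1% and 62.6%, and in the 9th 83.7% and 79.8%. Above a −log10 p of 10, 193 of 226 factor-free sites were kept (85.4%, 80.2 to 89.4), beside 85.2% of all SMARCA4 peaks of that strength and 85.2% of the factor-bound ones. The difference between factor-free and factor-bound peaks, 35.2 percentage points lower over all strengths, was 19.4 points lower when peaks were compared within deciles of strength. It was 10.6 points lower when they were compared within strength and within the classes of acetylation and position described next. Above a −log10 p of 10 it was 0.205 points, with an interval from −5.01 to 4.25 that spans 0.

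Not every kept site held the top of the FHT-1015 peak. The FHT-1015 summit lay inside the DMSO site for 4050 of the 7960 kept sites (50.9%), against 78.1% of kept factor-bound peaks. For 2280 kept sites (28.6%) an FHT-1015 peak over the site also covered a factor-bound DMSO SMARCA4 peak. Counted only by an FHT-1015 summit inside the site, 13.7% of factor-free sites and 48.6% of factor-bound peaks were kept. FHT-1015 peaks over kept sites were wide, with a median of 406 bp against 316 bp over the whole FHT-1015 list.

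The sites fell into 4 classes by acetylation in DMSO and by position, where a boundary site had any base within 1 kb of the start or end of a protein-coding gene. Boundary sites numbered 2685 (9.09%, 8.77 to 9.43), against 17.9% of all SMARCA4 peaks and 21.4% of the factor-bound ones. Of these, 1400 were acetylated and 1285 were not. The distal sites were 8312 with H3K27ac and 18532 without it, the last being 62.8% of all factor-free sites.

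The classes kept SMARCA4 to different degrees. Of acetylated boundary sites 73.6% were kept (71.3 to 75.9), of non-acetylated boundary sites 50.04% (47.3 to 52.8), of acetylated distal sites 45.3% (44.3 to 46.4) and of non-acetylated distal sites 13.6% (13.1 to 14.1). The factor-bound peaks of the same classes were kept in 91.4%, 76.9%, 71.9% and 29.0% of cases, the same order at a higher level. The median −log10 p was 4.68, 4.30, 4.42 and 3.85 in that order of classes. The order held in the bins of strength from 3 upward, and in the weakest bin, 2 to 3, non-acetylated boundary sites (36.2%) and acetylated distal sites (37.3%) changed places. Among sites with a −log10 p from 3 to 4, 60.1% of acetylated boundary sites, 42.6% of non-acetylated boundary sites, 39.0% of acetylated distal sites and 11.01% of non-acetylated distal sites were kept, and from 7 to 10 the shares were 88.0%, 83.3%, 65.1% and 38.5%.

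**Figure D3:**
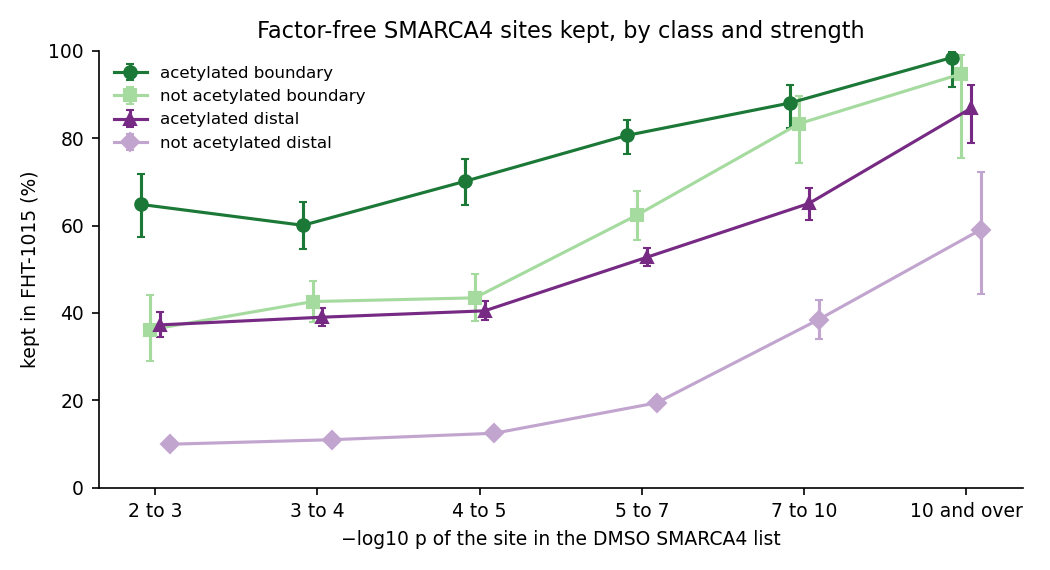
Percentage of factor-free sites kept in FHT-1015 (y axis, with 95% Wilson intervals) by −log10 p in the DMSO SMARCA4 list (x axis) for the 4 classes. Acetylated boundary sites lie highest, from 64.8% in the weakest bin to 98.4% in the strongest, and non-acetylated distal sites lowest, from 9.98% to 59.1%.

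Acetylation itself was kept at 5940 of the 9712 acetylated factor-free sites (61.2%, 60.2 to 62.1), against 75.3% of all acetylated SMARCA4 peaks and 78.2% of the factor-bound ones. It followed the position. H3K27ac in FHT-1015 lay over 85.9% of acetylated boundary sites and 57.0% of acetylated distal sites. Where SMARCA4 was kept, 74.7% of acetylated factor-free sites also kept H3K27ac, and where SMARCA4 was lost, 47.9% did. Over all acetylated SMARCA4 peaks these shares were 86.1% and 46.8%, so the factor-free sites lay near the rest where SMARCA4 was lost and below the rest where it was kept. Sites without H3K27ac in DMSO seldom had it in FHT-1015: 724 of 19817 did (3.65%), against 5.76% of all SMARCA4 peaks without it.

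A factor peak lay over 2884 factor-free sites in FHT-1015 (9.77%, 9.43 to 10.1), where 48.7% of all DMSO SMARCA4 peaks had one. The sites were chosen for lacking DMSO peaks of the same factors. Lower shares than over all SMARCA4 peaks, here and for each factor, thus in large part describe that choice. TFAP2A peaks lay over 1653 sites, MITF peaks over 793 and SOX10 peaks over 663, or 5.60%, 2.69% and 2.25%, against 39.5%, 23.2% and 15.04% of all DMSO SMARCA4 peaks in the same order. Kept sites had a factor peak more often (16.8%) than lost ones (7.17%), as did all SMARCA4 peaks (69.5% and 26.2%). TFAP2A was the most frequent factor in every class, with its highest shares at boundaries. TFAP2A peaks lay over 17.4% of acetylated and 17.1% of non-acetylated boundary sites, but over 5.03% and 4.16% of the distal ones. The FHT-1015 list of TFAP2A was also the longest, with 118942 peaks against 92716 for MITF and 33268 for SOX10. The part of list size here was not tested.

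Relative to gene positions, 59.7% of factor-free sites had their summit inside a protein-coding gene, close to the 57.7% of the other peaks. The median distance of the summit to a gene boundary was 26462 bp, against 21746 bp. The groups differed most near boundaries. Summits within 1 kb made up 7.57% of factor-free sites and 19.3% of other peaks, whereas summits from 1 to 2.5 kb away made up 11.4% and 7.42%.

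The same pattern appeared around transcript starts, which were known for 15843 protein-coding genes from the promoter table. SMARCA4 peaks with a summit within 250 bp of a start were rarely factor-free, 246 of 4798 (5.13%, 4.54 to 5.79). From 250 to 1000 bp downstream the share was 18.6%, and from 1000 to 3000 bp downstream it was 45.7% (2267 of 4960), above the 30.5% of peaks over 5 kb from a start. Upstream it was 13.8% between 250 and 1000 bp and 35.2% between 1000 and 3000 bp. The asymmetry was also present among peaks of like strength. With a −log10 p from 5 to 8, the factor-free share was 5.40% within 250 bp of a start, 44.1% from 1000 to 3000 bp downstream and 29.4% at the same distance upstream.

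**Figure D4:**
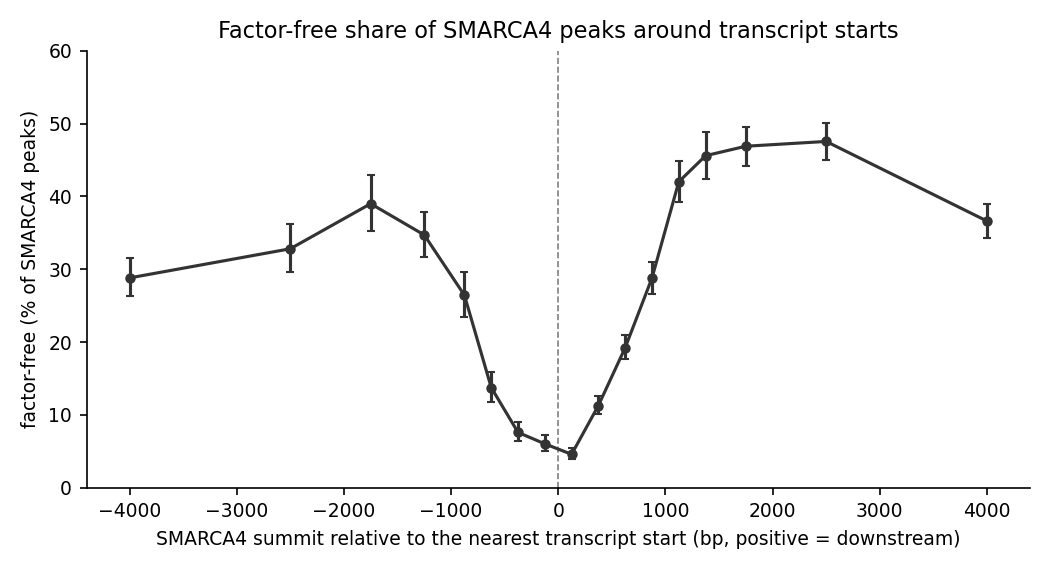
Percentage of DMSO SMARCA4 peaks that were factor-free (y axis, with 95% Wilson intervals) by the position of the SMARCA4 summit relative to the nearest transcript start in bases (x axis, positive downstream). The bins are narrower than those in the text. The share is lowest from 0 to 250 bp downstream of the start, 4.60%, and highest from 2000 to 3000 bp downstream, 47.6%.

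Factor-free sites just downstream of starts were also the ones most often kept. Of those 250 to 1000 bp downstream, 899 of 1172 were kept (76.7%) and 66.0% had H3K27ac in DMSO. Of those 1000 to 3000 bp downstream 56.3% were kept, and of those 1000 to 3000 bp upstream 37.0%, with H3K27ac at 49.2% and 47.2%. At the start itself 59.8% were kept with H3K27ac at 33.3%. Factor-bound peaks were also kept most often 250 to 1000 bp downstream, at 94.2%. Their kept share was 91.4% at the start, 79.9% from 1000 to 3000 bp downstream and 71.1% at that distance upstream. H3K27ac lay over 85.9%, 84.2%, 74.5% and 73.4% of the factor-bound peaks in that order.

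The strongest sites of each class show these patterns at single genes. The strongest acetylated boundary site lay inside USP7, which encodes a deubiquitinase of the p53 pathway, at chr16:8961760-8963252. It had a −log10 p of 31.0 with 40 summit reads and a fold of 10.1 in DMSO, and the FHT-1015 peak over it had 56.2. MEX3D, an RNA-binding protein gene, followed with 29.5 in DMSO and 35.7 in FHT-1015 (chr19:1567230-1567661). The third was in CAMSAP1, whose product binds microtubule ends, with 21.3 and 26.3. All 3 kept SMARCA4 and H3K27ac. Values from the 2 conditions come from different libraries and are given side by side only.

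Among acetylated distal sites, the strongest lay inside ACTN4, an actin cross-linker gene, with a −log10 p of 21.6 in DMSO and 25.6 in FHT-1015 (chr19:38648673-38649186). ELOVL5, a fatty acid elongase gene, had 16.8 and 47.5, and EFCAB14 had 15.7 and 22.2. At the last 2 sites SMARCA4 was kept while no H3K27ac peak was called in FHT-1015.

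The strongest factor-free site of all had no H3K27ac. It lay 291 bp from a boundary of CSF1, the gene of macrophage colony-stimulating factor, at chr1:109931119-109931576, with a −log10 p of 42.0, 53 summit reads and a fold of 11.4. It ranked 688th in the whole DMSO SMARCA4 list, and the FHT-1015 peak over it had 7.52. NFIX, a transcription factor gene, had 17.5 in DMSO and 17.2 in FHT-1015, where H3K27ac and TFAP2A peaks were also called. Of these, CSF1 had a much lower value in FHT-1015 than in DMSO and NFIX a like one.

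Non-acetylated distal sites were led by ENDOV, an endonuclease gene near the site, with 20.2 in DMSO and 22.7 in FHT-1015 (chr17:80440996-80441400). RESP18, a gene of neuroendocrine secretory granules, had 20.1 and 22.1. AUTS2, a gene of brain development, had 18.2 and 40.3. These 3 sites were kept, as were 26 of the 44 sites of this class with a −log10 p of at least 10 (59.1%, 44.4 to 72.3).

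The strongest lost sites were weaker. The acetylated ones lay nearest to PILRB, an immune receptor gene, with a −log10 p of 15.1 in DMSO, nearest to POLR1A, the largest subunit of RNA polymerase I, with 13.6, and inside PPP1R21 with 13.5. H3K27ac was called in FHT-1015 at the first and not at the other 2. The lost sites without H3K27ac lay inside IMMP2L, a mitochondrial peptidase gene, with 15.3, nearest to CPN2, a subunit of carboxypeptidase N, with 12.0, and nearest to LOC124902565 with 11.9.

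Strong sites far from any factor were few. More than 2500 bp from a factor peak and with a −log10 p of at least 10 there were 16 sites, with H3K27ac at 0 of 16 (which allows a share of up to 19.4%), 4 of them at a boundary. Of the 16, 10 were kept (62.5%, 38.6 to 81.5), against 468 of 6304 weaker sites at that distance (7.42%). Beside ENDOV and RESP18 they included a site near CACNG5, a calcium channel subunit gene, with 17.8 in DMSO and 21.5 in FHT-1015, and the CACNB4 promoter printed above. These examples were chosen after their values were seen.

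Per gene, counted over the gene and 10 kb on either side, 10247 of 20037 protein-coding genes held a factor-free site. The largest numbers were in long genes: SOX6 with 39 of its 102 SMARCA4 peaks, ARID1B with 35 of 86, RAD51B with 35 of 85, SOX5 with 35 of 94 and PDE4D with 34 of 110. SOX5 and SOX6 encode SOX factors, ARID1B a subunit of BAF itself, RAD51B a DNA repair protein and PDE4D a phosphodiesterase. Of the 39 sites at SOX6, 23 had H3K27ac and 11 were kept, all 11 of them acetylated. MITF, named because its product is 1 of the 3 factors, had 32 of 78 peaks factor-free, 28 of them acetylated and 10 kept. Numbers of sites rise with gene length, so these counts do not compare genes per length.

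At 745 genes every SMARCA4 peak was factor-free, but 590 of those genes had 1 peak. Among the leading genes, with 4 such peaks each, were TNFAIP2, NID2, a basement membrane protein gene, and SLC22A3, an organic cation transporter gene. None of the sites at TNFAIP2, NID2 and SLC22A3 had H3K27ac, and 2, 1 and 0 of their 4 sites were kept.

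Among gene lists, 2757 of 20037 protein-coding genes (13.8%) had a factor-free site within 1 kb of a boundary. Ribosomal protein genes had one in 29 of 79 (36.7%, 26.9 to 47.7), with H3K27ac at such a site in 28 genes and a kept site in 20. RPL13A had the strongest, with a −log10 p of 13.8 in DMSO and 11.6 in FHT-1015, and RPLP1 had 13.1 and 6.40. Proteasome subunit genes had one in 9 of 31 (29.0%, 16.1 to 46.6), all 9 acetylated and kept, led by PSMC6 with 11.1 in DMSO and 2.40 in FHT-1015 and PSMA7 with 8.57 and 9.63. Respiratory chain genes had one in 8 of 48 (16.7%, 8.70 to 29.6), with 5 kept. Across all protein-coding genes with such a site, 64.0% had a kept one. Almost all ribosomal protein and proteasome genes had H3K27ac at a boundary, 98.7% and 96.8%, against 57.7% of all genes, and the part of acetylation in these counts was not tested.

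The intervals of the regulatory gene lists all included the 13.8% of all protein-coding genes, as did that of the respiratory chain genes. BAF subunit genes had a boundary site in 5 of 29 (17.2%, 7.60 to 34.5): SMARCC2, DPF3, BRD7 and SS18L1 with kept sites and PBRM1 with a lost one. The SS18L1 site is the one counted for PSMA7. HOX genes, which set body position, had one in 9 of 39 (23.1%, 12.6 to 38.3), with 3 kept. The site at HOXC4, HOXC5 and HOXC6 is a single one, as is that at HOXD3 and HOXD4. Of 19 AP-1 and immediate early genes 2 had one (10.5%, 2.94 to 31.4), both without H3K27ac. FOSL1 had a −log10 p of 7.94 in DMSO and 6.83 in FHT-1015, and EGR1 had 4.67 and 25.9. YAP and TEAD target and pathway genes had one in 3 of 16 (18.8%, 6.59 to 43.0), of which CCN2 was kept and CCN1 and AMOTL2 were lost.

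The counts in the lists of lineage markers were too small to set apart from the background. Of 11 pigment lineage genes 1 had a boundary site (9.09%, 1.62 to 37.7), TYR, the key enzyme of melanin synthesis, with 4.62 in DMSO and 11.2 in FHT-1015, acetylated in both. Of 20 markers of other cell types 1 had one (interval 0.888 to 23.6), EPCAM, which was lost. ZNF genes, of which 76.8% had H3K27ac at a boundary, had one in 52 of 509 (10.2%, 7.88 to 13.2). Olfactory receptor genes had one in 3 of 390 (0.769%), none of them kept, but a SMARCA4 peak of any kind lay at a boundary of only 9 of the 390.

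**Figure D5:**
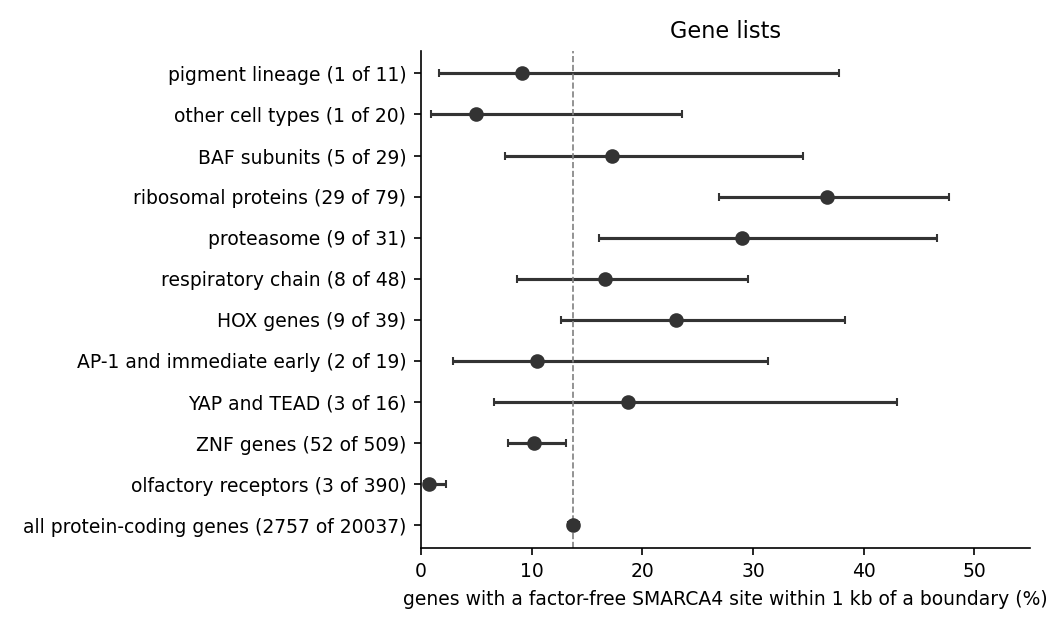
Percentage of the genes of each list with a factor-free site within 1 kb of a gene boundary (x axis, with 95% Wilson intervals over genes), with counts beside the names. The dashed line is the 13.8% of all protein-coding genes; ribosomal protein genes lie at 36.7% and olfactory receptor genes at 0.769%.

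Some FHT-1015 SMARCA4 peaks over the sites were very strong. Of the 29529 factor-free sites, 140 lay under 1 of the 783 FHT-1015 peaks whose −log10 p was 50 or more. This was a lower share than over all DMSO SMARCA4 peaks, of which 1149 of 101987 (1.13%) did. At most of the 140 sites the FHT-1015 peak also covered a factor-bound DMSO peak. In 6 cases, with 8 sites, it covered factor-free sites alone. The highest was at BSN, which encodes the presynaptic scaffold protein bassoon, at chr3:49554735-49555456, with 13.3 in DMSO and 135 in FHT-1015, no H3K27ac in either condition and a MITF peak in FHT-1015. YPEL3 had 11.5 and 70.03, and SYN3, which encodes a synapsin of synaptic vesicles and had no H3K27ac, had 7.79 and 63.2. UBE2F, a ubiquitin-like conjugating enzyme gene, had 10.6 and 54.6. RPA3, a subunit of the replication protein that binds single-stranded DNA, had 9.97 and 50.5, and the sixth was USP7. At RPA3 the FHT-1015 summit lay outside the site, 946 bp from the DMSO summit, and a TFAP2A peak was called over the site in FHT-1015. These genes were chosen after their values were seen, and a difference between 1 library and another has no replicate check.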

How the data were processed

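Chromatin of 92-1 cells was sequenced after immunoprecipitation, 1 library per antibody and condition. The sample groups were taken from the titles. Per the submitters' processing notes, the tools named were BWA, SAMtools, Picard and MACS2 and the build was hg38. Versions, settings and the control used for peak calling are not given in the sources used here. The data were 14 deposited peak lists, 10 narrow and 4 broad (SMARCA4 and H3K27ac), each from 1 library. The authors' fold enrichment is a ratio over the caller's background. The −log10 p and −log10 q values were deposited by the authors for each peak and ranked peaks within a list. The authors' score was not used.

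Narrow lists were the main data, and duplicate rows counted as 1 peak. Overlap needed at least 1 bp. Gene extents and strands of promoter windows came from RefSeq GRCh38.p14, with 20037 protein-coding genes. Total reads per library are not given in the sources used here. Under a Poisson model of the caller's p, the reads at every SMARCA4 summit came out whole within 0.002, with medians of 15 in DMSO and 14 in FHT-1015. The lowest background was 1.91 and 1.77 reads.

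Shares have 95% Wilson intervals. Matched differences were averaged over deciles of −log10 p with at least 20 peaks of both kinds. Overlap and matching were tested on simulated data. Genes were named by rule: the 3 strongest sites of each class, the 3 strongest lost sites with and without H3K27ac, the 5 genes with most sites, the 5 with most peaks that were all factor-free, and the gene lists. Some genes that the rule names are not reported here. The members and lists were chosen with earlier results of these data known. The counts by FHT-1015 summit inside a site, the 2 comparisons matched within classes or on width, and the far and the strongest FHT-1015 sites were chosen after seeing the data. Python 3.11.15, numpy 2.4.6, pandas 2.3.3 and scipy 1.17.1 were used. Sequences of distal sites were not analysed here.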

Additional observations from a re-analysis of the deposited data

How the results depend on the processing

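No paired analysis was possible because each antibody and condition had 1 library and no result comes from a test, and leaving out a replicate was likewise not done. All the alternative values lay outside the 95% interval of the main value, but some of their own intervals reach or overlap it, and those matched on strength have none. The cause was not tested. With SMARCA4 peaks of a −log10 p of at least 10 alone, the factor-free share was 1.17%, H3K27ac lay over 72.1% of the sites, 36.7% were at a boundary, 85.4% were kept, 85.9% of acetylated sites kept H3K27ac and 25.7% had a factor peak in FHT-1015. The kept share of factor-free sites was then 0.205 points from that of other peaks (−5.01 to 4.25, which spans 0), where the main difference was −35.2. The kept share was 21.6 points higher with than without H3K27ac (10.3 to 34.2, main 33.5) and 19.3 higher at boundaries than distally (main 38.9). These rest on 226 sites.

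With no factor peak allowed within 500 bp, these 9 values in the same order were 16.4%, 17.3%, 4.57%, 16.1%, 53.8%, 7.39%, −46.1, 28.5 and 27.6. With only factor peaks of a −log10 p of at least 10 counted, the factor-free share was 43.4%, H3K27ac lay over 38.1%, 34.2% were kept and the difference to other peaks was −31.5. With FHT-1015 factor peaks limited in the same way, 1.56% of sites had one.

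The broad lists gave a factor-free share of 32.3%, H3K27ac over 36.7% of sites, 21.6% kept and H3K27ac kept at 62.9%. With the SMARCA4 summit required inside an H3K27ac peak, 29.3% had it. Within 2.5 kb of a boundary lay 19.5%, and the boundary difference was then 34.2. When at least 50% of a site had to be covered 20.9% were kept, and with summits within 200 bp 15.8%, with differences of −28.4 to other peaks and 16.9 between acetylated and other sites.

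Matched on strength, the differences were −19.4 to other peaks, 29.9 for H3K27ac and 34.7 for boundaries. In distal sites alone, the first was −31.5 and the second 31.7, and in acetylated sites alone the boundary difference was 28.3. Added after seeing the data, matching within the 4 classes gave −10.6 and matching on strength and width −13.2. The median factor-free site had 11 summit reads, and the part of depth in the lost sites was not tested.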

Other observations

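Factor-free sites were spread over the autosomes and the X chromosome, with 1 departure. On the X chromosome 423 of 2281 SMARCA4 peaks were factor-free (18.5%), below every autosome, whose shares ran from 25.1% to 32.2%. The X-linked sites had H3K27ac in 50.6% of cases (45.8 to 55.3) and were kept in 37.8%, and their median −log10 p was 4.48 against 4.08 over all factor-free sites. Among autosomes the kept share was highest on chromosome 19, at 37.2%, with H3K27ac at 40.5%.

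Distal sites had no base within 1 kb of the start or end of a protein-coding gene, but could lie inside one. They included some at the boundaries of non-coding genes. At lncRNA genes lay 1144 of 26844 (4.26%, against 6.01% of distal factor-bound peaks), and 34.7% of them were kept (32.0 to 37.5) against 22.9% of the rest. The distal factor-bound peaks differed in the same direction, with 69.7% kept at lncRNA genes and 54.0% of their rest. At genes of snoRNAs, which guide RNA modification, lay 36 sites, of which 52.8% were kept (37.0 to 68.0), against 64.2% of factor-bound peaks there. At miRNA genes lay 80 sites, of which 32.5% were kept. At tRNA genes lay 7 factor-free sites and 62 factor-bound peaks, or 0.0261% and 0.109% of the distal peaks.

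At GPR158, NTSR2 and ARAP1 the FHT-1015 SMARCA4 peaks over factor-free sites had −log10 p values of 269, 189 and 149, but their summits lay outside the sites and another DMSO SMARCA4 peak, of 21.5, 27.6 and 21.5, lay under the same FHT-1015 peak.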
